A study of Mus musculus with 3 samples.

Results

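The coreceptor genes Cd4, Cd8a and Cd8b1 and the gene Zbtb7b, which encodes the transcription factor ThPOK, were examined in resting natural killer cells (NKC). These 4 genes were taken by symbol from a mouse annotation on the build of the files (mm9), out of 22350 protein-coding genes on the 20 chromosomes with listed regions. Each gene body was taken with 50 kb on either side, and the neighbouring Cd8b1 and Cd8a were joined, with the interval between them, into 1 window. The 3 windows held 7 of 15524 Runx3-bound regions, called peaks here, and 26 of 49902 regions marked by histone H3 monomethylated at lysine 4 (H3K4me1).

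The cells were freshly isolated splenic NKC of wild type ICR mice with no allele or treatment added, and the age of the animals is not given in the sources used here. Chromatin immunoprecipitation sequencing (ChIP-seq) was described for 3 samples, 1 each for an antibody to Runx3, an antibody to H3K4me1 and non-immune serum (NIS), the control against which regions were called. The labels describe a sort for NKp46+ cells and the methods of the study a sort for DX5+ cells. The 2 deposited lists give positions only, so the read depth and signal strength at a region are unknown, no NIS value could be read at a locus, and the spread between replicates is unknown. The values below are therefore counts and distances without a test, and a gene or stretch with 0 listed regions is one where nothing passed the authors' calling, which is not the same as an absence of binding.

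CD4 and CD8 are the coreceptors by which helper and cytotoxic T cells dock onto MHC class II and class I molecules, and neither is among the receptors that define mouse NKC. In developing T cells, Runx proteins act through a silencer in the first intron of Cd4, Runx3 takes part in the activity of Cd8 through enhancers around Cd8b1 and Cd8a, and a Runx-dependent silencer restrains Zbtb7b in cells that become cytotoxic. ThPOK in turn directs thymocytes to the helper fate, and H3K4me1 is a histone mark of enhancers and of the flanks of active promoters. The positions of these elements were not in the files used here, so the text describes introns, intervals and start sites and does not place the elements themselves.

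Of the 4 genes, Zbtb7b alone had Runx3 peaks inside its body, and Cd4, Cd8a and Cd8b1 had 0 regions of either list in theirs. A Runx3 peak lay in the body of 33.6% of all protein-coding genes and an H3K4me1 region in that of 63.3%, while 36.5% had neither. With 50 kb on either side, Zbtb7b had 5 peaks, Cd4 had 2, and Cd8a and Cd8b1 each had 0. Over all protein-coding genes, 62.6% had a peak at that distance and 79.7% had an H3K4me1 region, so that peaks at 2 of the 4 genes did not stand above the background. At 5 kb the gene with peaks was Zbtb7b with 2, where 39.8% of protein-coding genes had at least 1. At 20 kb the counts were the same, and 51.0% of protein-coding genes had at least 1. At 100 kb Cd4 had 7 peaks, Cd8a and Cd8b1 had 1 each and Zbtb7b had 5, against 72.4% with at least 1. H3K4me1 regions numbered 1 at Cd4, 0 at Cd8a and Cd8b1 and 3 at Zbtb7b within 5 kb, where 67.7% of protein-coding genes had at least 1. Within 20 kb they numbered 5, 0, 0 and 4 (74.0% of genes), and within 100 kb 21, 5, 5 and 19 (84.1%). Both Cd8 genes were at 0 in both lists up to 20 kb.

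**Figure D1:**
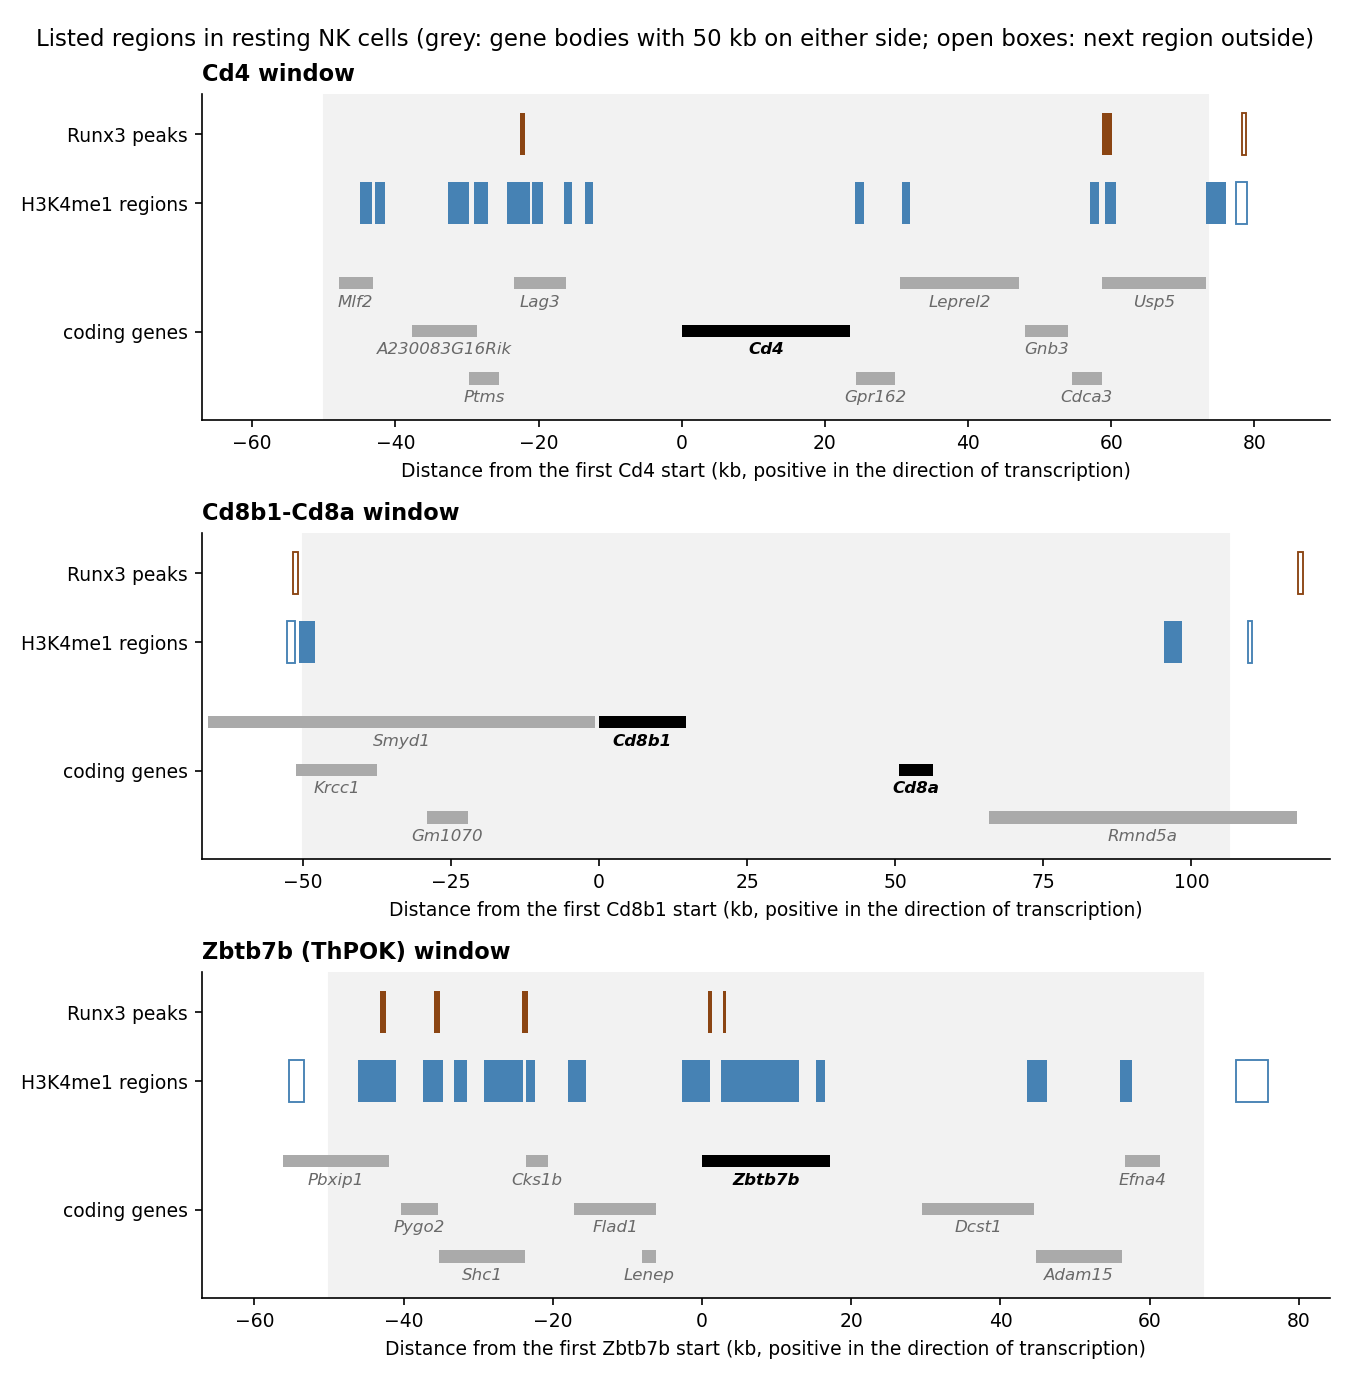
Runx3 peaks (brown) and H3K4me1 regions (blue) in the 3 windows against the distance in kb from the first Cd4, Cd8b1 or Zbtb7b start, with protein-coding genes below and open boxes for the next region of each list just outside, where it lay within the axis. Peaks sat on the Zbtb7b body and at neighbouring genes of the Cd4 and Zbtb7b windows, and the Cd8b1-Cd8a window held 0.

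Sequences are shown here because the peaks on Zbtb7b lacked the letters that most Runx3 peaks held, and the peak-free first intron of Cd4 had them in a cluster. That cluster was picked as the densest of the intron. As wholes, the intron and the Zbtb7b body were alike in these letters, with 2.15 and 2.16 matches per kb. The first is 300 bases of the peak in an intron of Zbtb7b, chr3:89195576-89195875, the second the part of the peak over Zbtb7b start sites that lay outside untranslated exons, chr3:89197601-89197855, and the third 300 bases of the peak in Lag3, chr6:124860359-124860658. The fourth is the stretch of 300 bases of the first Cd4 intron with the most RUNX matches, chr6:124836010-124836309, which lay under 0 regions of either list. All are on mm9, on the minus strand and 5′ to 3′, and capitals mark a RUNX consensus match (TGTGGT or TGTGGC or TGCGGT or TGCGGC on either strand) or an ETS word (AGGAAGT or CGGAAGT on either strand).
Zbtb7b intron peak: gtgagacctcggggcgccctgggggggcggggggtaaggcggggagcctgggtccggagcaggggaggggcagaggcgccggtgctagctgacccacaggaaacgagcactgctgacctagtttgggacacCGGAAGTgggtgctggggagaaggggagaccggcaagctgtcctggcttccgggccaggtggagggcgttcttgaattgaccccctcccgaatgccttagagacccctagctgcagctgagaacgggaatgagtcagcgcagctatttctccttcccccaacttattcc
Zbtb7b start-site peak: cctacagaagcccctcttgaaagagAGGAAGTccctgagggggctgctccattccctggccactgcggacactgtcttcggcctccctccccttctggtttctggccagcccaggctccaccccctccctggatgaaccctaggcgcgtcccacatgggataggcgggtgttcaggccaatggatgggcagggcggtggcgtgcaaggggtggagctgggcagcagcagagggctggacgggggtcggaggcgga
Lag3 peak: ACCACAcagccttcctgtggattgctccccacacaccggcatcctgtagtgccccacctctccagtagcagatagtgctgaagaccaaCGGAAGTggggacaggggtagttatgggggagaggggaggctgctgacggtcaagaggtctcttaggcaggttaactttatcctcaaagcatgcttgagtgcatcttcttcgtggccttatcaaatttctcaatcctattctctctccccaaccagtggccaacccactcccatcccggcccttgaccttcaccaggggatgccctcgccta
Cd4 intron stretch: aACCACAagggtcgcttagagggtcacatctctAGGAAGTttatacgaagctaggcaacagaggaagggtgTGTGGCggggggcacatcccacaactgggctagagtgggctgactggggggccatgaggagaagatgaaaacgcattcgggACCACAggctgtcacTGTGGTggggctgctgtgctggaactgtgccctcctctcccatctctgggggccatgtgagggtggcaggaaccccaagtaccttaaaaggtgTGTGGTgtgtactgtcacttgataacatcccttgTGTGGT

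Zbtb7b (ENSMUSG00000028042.8) lay at chr3:89181566-89198698 on the minus strand with 10 annotated transcripts. Its body held 2 Runx3 peaks, and 9.51% of protein-coding genes had as many as 2. The peak chr3:89197363-89197855, 493 bp wide, covered 2 annotated Zbtb7b starts, and a peak over a start was found at 24.2% of protein-coding genes. The other peak, chr3:89195546-89195945, was 400 bp wide, and its edge lay 46 bp inside the gene from the start of a shorter transcript, so that it overlapped the first, untranslated exon of that transcript and the intron after it. Together the peaks were within 1 kb of 8 of the 10 starts, and the remaining starts were up to 4.43 kb away.

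Both Zbtb7b peaks were narrow for the list, in which the median width was 825 bp. A width of 400 bp or less occurred in 0.361% of Runx3 peaks and one of 493 bp or less in 2.56%. Their midpoints were 1864 bp apart, and 7.04% of neighbouring pairs of peaks in the list were as close or closer. The intron peak also covered 2 of the 4 annotated starts of the noncoding gene Gm15417, which is transcribed from the opposite strand across Zbtb7b starts. Its midpoint was 27 bp from the nearest Gm15417 start and 246 bp from the nearest Zbtb7b start. No Zbtb7b start lay under it, so by position it was a start-site peak of Gm15417 that lay near a Zbtb7b start.

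H3K4me1 covered 12619 bp of the Zbtb7b body, or 73.7%, compared with a median of 5.61% over protein-coding genes, and 4.89% of these genes were covered to that extent. This cover came from 3 regions. The widest, chr3:89185658-89196091, spanned 10434 bp from the 3′ part of the gene to beyond the intron peak, a width that 1.79% of H3K4me1 regions reached. A region of 3737 bp, chr3:89197645-89201381, ran from the peak over the start sites past the first start into upstream sequence, and one of 1131 bp, chr3:89182240-89183370, lay over untranslated sequence towards the 3′ end.

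Between the first and the second of these regions was a gap of 1553 bp, chr3:89196092-89197644, that held 6 of the 10 Zbtb7b starts. The peak over the start sites straddled the border of this gap, with 282 bp inside it and 211 bp under H3K4me1. The intron peak was under H3K4me1 over its whole width. Every Zbtb7b start lay within 520 bp of an H3K4me1 region, and 4 of them lay under one.

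**Figure D2:**
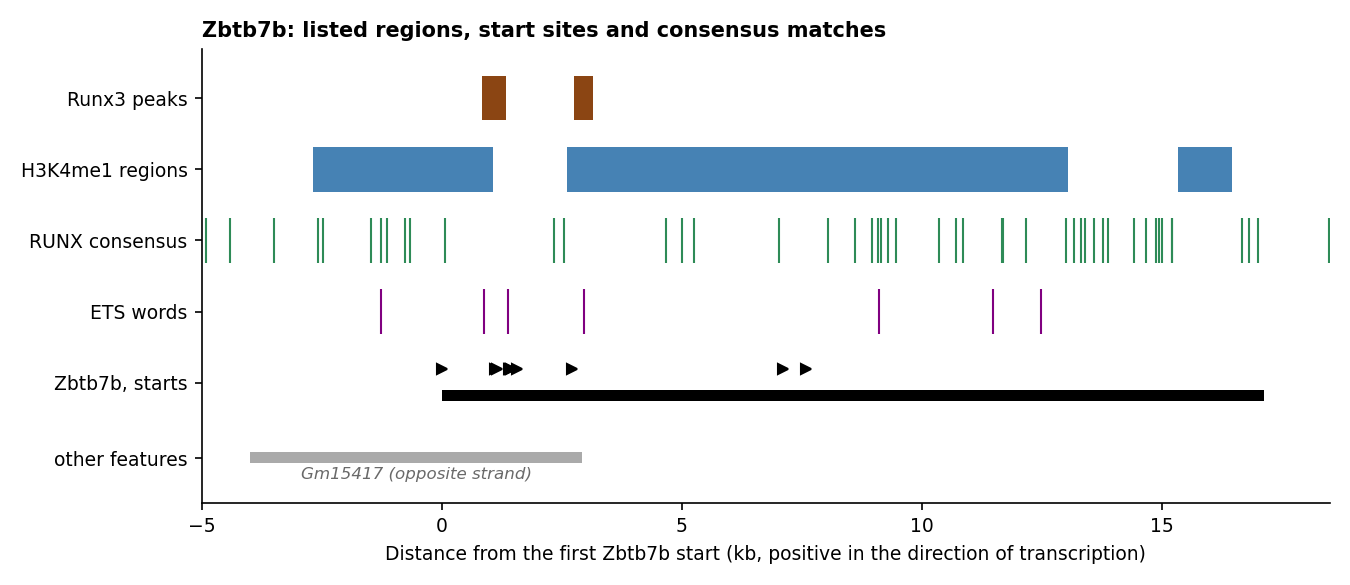
Runx3 peaks, H3K4me1 regions, RUNX and ETS matches (ticks) and annotated starts (arrowheads) along Zbtb7b, against the distance in kb from its first start in the direction of transcription. The 2 peaks lie at either end of the gap of 1553 bp between H3K4me1 regions and hold 0 RUNX ticks and 1 ETS tick each.

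The RUNX consensus, the letters to which Runx proteins are known to bind, was present in 93.3% of all Runx3 peaks and in 5 of the 7 peaks of the 3 windows (71.4%, exact 95% interval 29.0 to 96.3, counting error only). The 2 peaks without a match were those on the Zbtb7b body. Of equal stretches of the genome, 43.0% of those of 400 bp and 49.9% of those of 493 bp held a match. Narrow peaks held it less often as a whole, with a match in 311 of the 398 peaks of 493 bp or less (78.1%) and in 44 of the 56 of 400 bp or less (78.6%). Each Zbtb7b peak had 1 ETS word, the letters known for factors such as Ets1. In the intron peak its centre was 4 bp from the midpoint, and in the peak over the start sites it was 218 bp away. An ETS word occurred in 41.8% of all Runx3 peaks and in 10.1% and 12.3% of genome stretches of the same 2 widths. The Zbtb7b body as a whole had 37 RUNX matches, 2.16 per kb, compared with 1.48 per kb over the 20 chromosomes. The nearest match was 221 bp from the edge of the intron peak and 788 bp from that of the peak over the start sites.

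The other 3 peaks of the Zbtb7b window all lay upstream of the gene. One, chr3:89221981-89222821, covered starts of Cks1b and Shc1, which encode a subunit of cyclin-dependent kinases and a signalling adaptor, 23.7 kb from the first Zbtb7b start. A second, chr3:89233815-89234606, covered starts of Pygo2, a cofactor of Wnt signalling, at 35.5 kb, and the third, chr3:89241034-89241868, lay in an intron of Pbxip1 at 42.8 kb. These peaks held 5, 4 and 3 RUNX matches, and their widths of 841, 792 and 835 bp were near the median of the list. They were nearer to the starts of those genes, by 36, 27 and 773 bp from the midpoint, than to Zbtb7b. Going by counts, Zbtb7b with its 5 peaks was among the 12.3% of protein-coding genes with as many or more in such a window, and with its 11 H3K4me1 regions among 16.4%. Without the neighbouring genes' peaks, the body and 20 kb around it held 2 peaks, and 51.0% of protein-coding genes had at least 1 at that distance. For the body alone, which held both peaks, 9.51% of protein-coding genes had 2 or more.

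Cd4 (ENSMUSG00000023274.7) lay at chr6:124814710-124838239 on the minus strand with 6 annotated transcripts. Its body of 23.5 kb and its first intron of 8.39 kb, chr6:124829712-124838097, were free of listed regions. From the first start, the nearest edge of a Runx3 peak was 21.9 kb away and that of an H3K4me1 region 12.4 kb. For 52.9% of protein-coding genes the nearest peak to a start was at least as far as the 21.9 kb of Cd4. The stretch without H3K4me1 that contained Cd4 ran for 36.6 kb, chr6:124813994-124850592, and 33.3% of protein-coding genes lay in one as long. The stretch without Runx3 peaks ran for 80.7 kb, and 57.2% lay in one as long.

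The intron nevertheless held 18 RUNX matches, 2.15 per kb. Of these, 6 fell within 300 bases whose centre was 2.08 kb downstream of the first start. Of 304315 genome stretches as long as the intron, 1.61% had 300 bases with as many, and the median was 3. Within it, 2 matches on opposite strands started 15 bp apart. The stretch was picked as the densest of the intron, and the letters alone do not show binding. In the plot of matches along Cd4 and Lag3, this cluster sits where both lists have a blank.

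**Figure D3:**
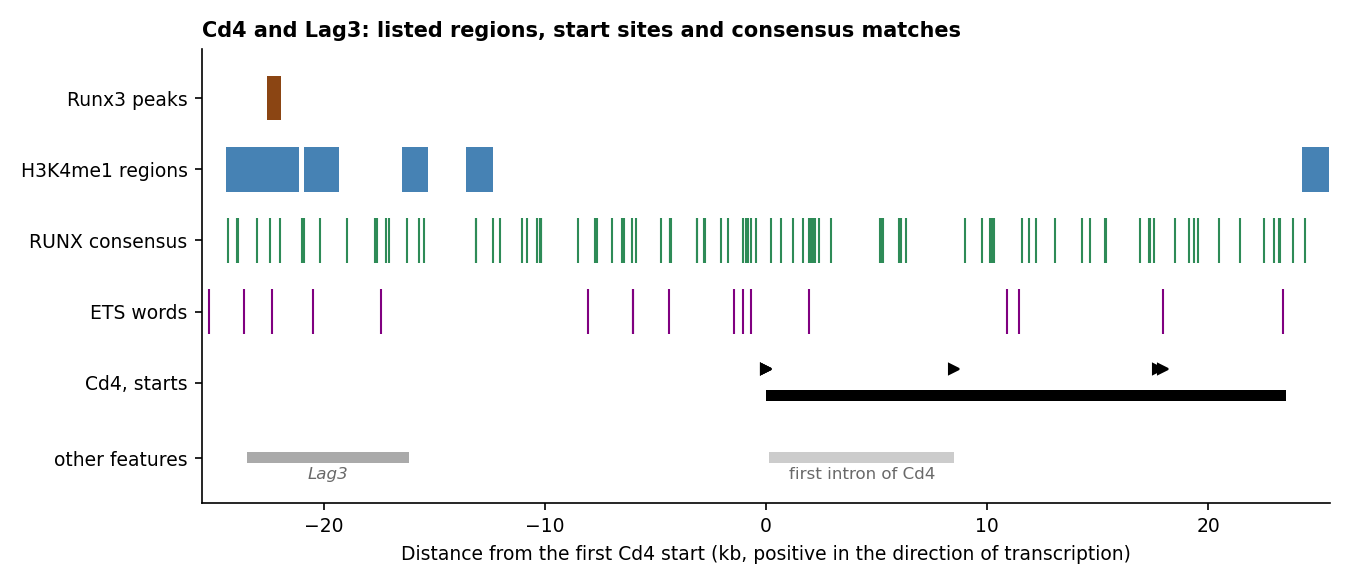
The same features along Cd4 and its neighbour Lag3, against the distance in kb from the first Cd4 start in the direction of transcription. RUNX ticks crowd at about 2.08 kb in the first intron, where 0 regions are listed, and the peak upstream of Cd4 lies on Lag3.

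The 2 Runx3 peaks of the Cd4 window lay on neighbouring genes. The peak chr6:124860171-124860807, 637 bp wide, lay over coding exons of Lag3, 1.23 kb downstream of its first start. The nearest of the 2 annotated Lag3 starts was 102 bp from the peak's edge, with the peak's midpoint 420 bp upstream of it. Lag3 encodes an inhibitory receptor that is related to CD4 and also binds MHC class II. This peak was 22.2 kb upstream of the first Cd4 start. It held 2 TGTGGT words, 260 and 166 bp from its midpoint, and 1 ETS word, and lay under a single H3K4me1 region of 3306 bp over its whole width. Of genome stretches of this width, 58.9% held a RUNX match. The other peak, chr6:124778129-124779503, was 1375 bp wide and lay 59.4 kb downstream of the first Cd4 start. It covered 4 of the 9 annotated starts of Usp5, a deubiquitinase, and its edge was 62 bp from the nearest start of Cdca3. It held 2 RUNX matches, and 1029 bp of it were shared with H3K4me1.

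The 13 H3K4me1 regions of the Cd4 window were between 1044 and 3306 bp wide and covered 16.7% of it, compared with a median of 7.49% over the windows of protein-coding genes. As many or more were found at 9.12% of protein-coding genes, while 23.8% had a window covered to that extent or more. Upstream of Cd4 lay 8, of which 3 overlapped Lag3 and the nearest, chr6:124850593-124851804, was intergenic, and 5 lay downstream at starts or exons of Gpr162, Leprel2, Cdca3, Usp5 and Tpi1. A Runx3 peak overlapped 2 of the 13, and the share over all H3K4me1 regions was not computed. The Cd4 window thus combined a count of H3K4me1 regions in the upper tail of all genes with an empty gene body.

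Cd8b1 (ENSMUSG00000053044.7) at chr6:71272830-71287471 and Cd8a (ENSMUSG00000053977.7) at chr6:71323421-71329165, both on the plus strand, encode the beta and alpha chains of CD8. Both bodies and the 35.9 kb between them, chr6:71287472-71323420, held 0 Runx3 peaks and 0 H3K4me1 regions. The whole window of 156 kb held 0 peaks, and 37.4% of protein-coding genes had 0 within 50 kb. It held 2 H3K4me1 regions that covered 3.35%, chr6:71222149-71224965 at the edge over introns of Krcc1 and Smyd1, and chr6:71368207-71371304 in an intron of Rmnd5a. The edges nearest to a Cd8 start were 47.9 kb from Cd8b1 and 44.8 kb from Cd8a. A combination of 0 peaks with at least 1 H3K4me1 region in the window was found for 17.3% of protein-coding genes, and 20.1% had neither.

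The 143 kb between those H3K4me1 regions, chr6:71224966-71368206, was a stretch that 4.96% of the stretches between H3K4me1 regions equalled or exceeded, and 25.4% of protein-coding genes lay in one as long. The stretch without Runx3 peaks ran for 169 kb. The peak that ended it on the Cd8b1 side, chr6:71221136-71221992, lay 837 bp outside the window at the start of Krcc1, and the one on the Cd8a side lay 11.6 kb outside, near the start of Rmnd5a. The interval between the genes held 69 RUNX matches, 1.92 per kb. Its densest 300 bases, 27.4 kb upstream of the Cd8a start, held 4, which 43.3% of genome stretches as long as the interval equalled or exceeded.

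The promoters were taken from 250 bp upstream to 50 bp downstream of the first start. A single RUNX match was found in that of Cd8a, starting 43 bp downstream of the start, and 0 in those of Cd4, Cd8b1 and Zbtb7b, while 45.3% of 22350 promoters and 34.5% of genome stretches of the same length had one. The ETS words were in 0 of the 4, compared with 16.1% of all promoters. For Zbtb7b the first start, chr3:89198698, was that of a noncoding transcript. Its protein-coding starts lay further into the gene, outside the stretch searched, so its counts of 0 hold for that first start alone.

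**Figure D4:**
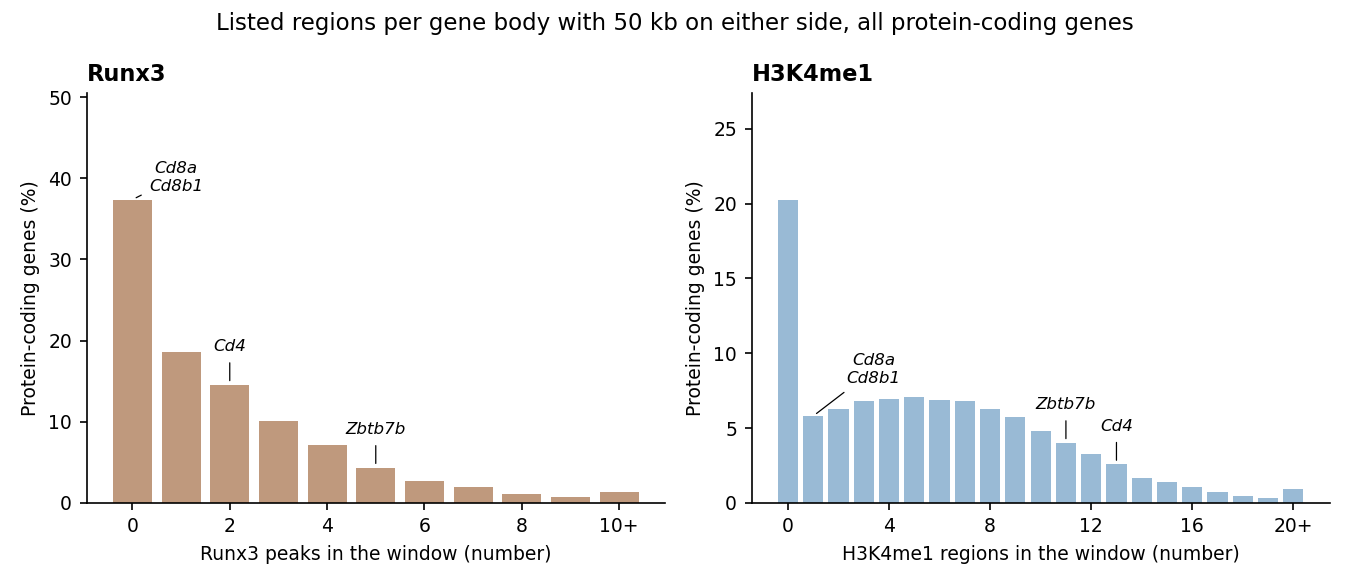
Percent of 22350 protein-coding genes (bars) by the number of Runx3 peaks (left) and H3K4me1 regions (right) in the gene body with 50 kb on either side, with the members marked at their counts. Cd8a and Cd8b1 sit at 0 and 1, Cd4 at 2 and 13, and Zbtb7b at 5 and 11, against medians of 1 and 5.

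All 7 peaks of the windows overlapped H3K4me1, compared with 95.7% of the list. The midpoint was inside one for 5 of the 7 (71.4%, list 83.6%), the exceptions being the peak over the Zbtb7b starts and the one over the Cks1b and Shc1 starts. In the other direction, 8 of the 26 H3K4me1 regions held a peak and 18 did not, and 6 of the 8 were in the Zbtb7b window. The share over all 49902 H3K4me1 regions was not computed. These counts therefore have no background and are not read as a trait of the windows. Of 21 other protein-coding genes with a start in a window, 4 had a Runx3 peak over a start and 13 an H3K4me1 region, compared with 24.2% and 43.6% of all protein-coding genes.

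Genes known to act on Cd4, Cd8 or Zbtb7b were counted beside them. Of 32 such regulators, chosen with earlier results of these data known, 28 had a Runx3 peak within 5 kb (87.5%, all protein-coding genes 39.8%) and 31 within 50 kb (96.9%, all protein-coding genes 62.6%). The counts within 50 kb were highest at Runx1 with 20, Runx3 with 15 and Ikzf1, the gene of the lymphoid factor Ikaros, with 13. Smarce1, a subunit of the BAF remodelling complex, had 0. The median regulator had 4.5 peaks within 50 kb, and the median protein-coding gene had 1. Zbtb7b exceeded the regulator median with 5, a count that included the peaks at neighbouring genes. Cd4 with 2 and Cd8a and Cd8b1 with 0 did not reach the regulator median.

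Markers of the sorted cells and of other lymphoid and myeloid cells gave the following counts. All 11 NKC markers, such as Ncr1 (NKp46), had a peak within 5 kb, as did 6 of 9 T cell markers (66.7%), 3 of 7 B cell markers (42.9%) and 3 of 9 dendritic cell, macrophage or granulocyte markers (33.3%). The share of all protein-coding genes was 39.8%, near that of the B cell and myeloid lists. At 50 kb the counts were 11 of 11, 8 of 9, 6 of 7 and 7 of 9, compared with 62.6% of all protein-coding genes. Of the genes of the CD3 complex in the T cell list, Cd3e and Cd3d each had 1 peak within 5 kb and Cd3g had 0, and the signalling adaptor Trat1 had 0 within 50 kb. Among the other T cell markers, Cd28 had 4 peaks within 5 kb, Bcl11b 2, Cd6 and Themis 1 each and Cd5 0. Cd3d, Cd3e and Cd3g are neighbours, so that a peak may count for more than 1 of them. Klrb1c, Klrk1 and Klrd1 of the NKC list all lie on chromosome 6, and whether they share peaks was not examined. Bcl11b is in both the T cell and the regulator list. In lists of positions, peaks from other cells in the sort and peaks from NKC cannot be told apart.

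**Figure D5:**
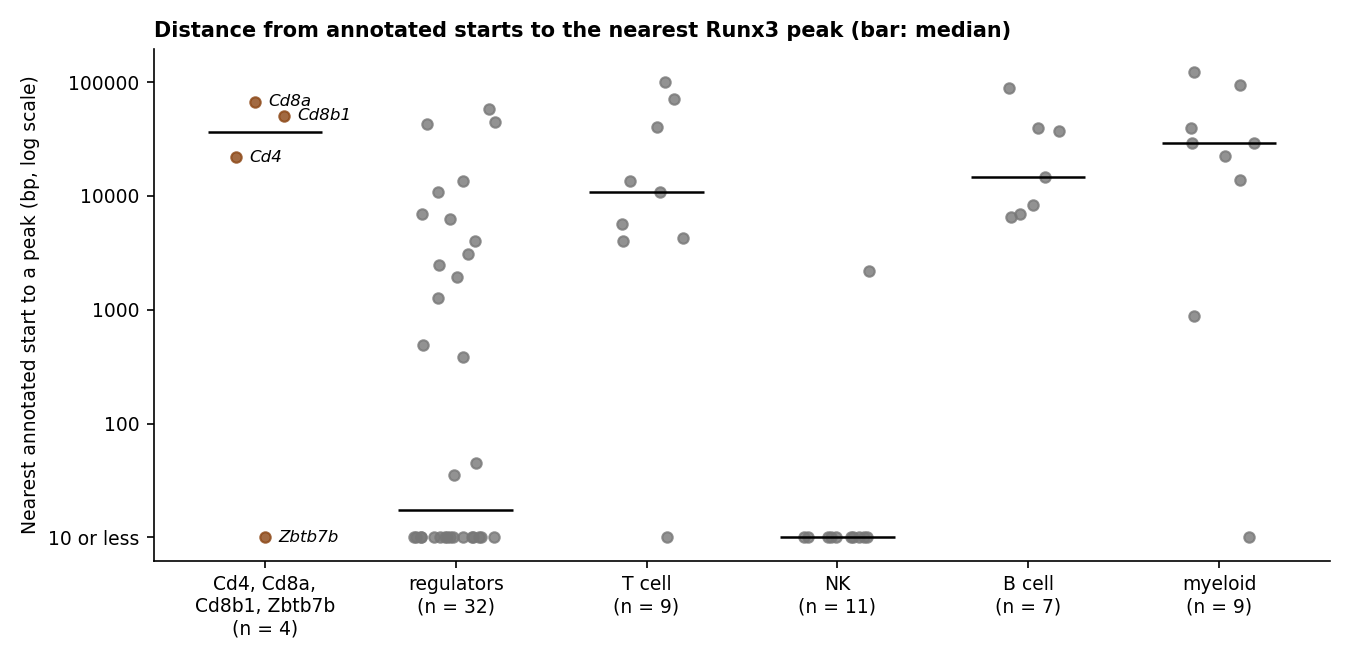
Distance in bp (log scale, 10 or less drawn at 10) from the nearest annotated start of each gene to a Runx3 peak, for the 4 members and the marker and regulator lists (bars are medians). Zbtb7b sits at the bottom with 10 of 11 NKC markers, 16 of 32 regulators, 1 of 9 T cell, 0 of 7 B cell and 1 of 9 myeloid markers. Cd4 (21.9 kb), Cd8b1 (50.8 kb) and Cd8a (67.4 kb) sit at 20 kb or more. So do 3 regulators (Myb, Il7r and Smarce1), 3 T cell, 3 B cell and 6 myeloid markers.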

How the data were processed

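According to the labels, resting splenic NKC were fixed in 1% formaldehyde and sonicated, and 40 bp reads were aligned by the authors to mm9 with ELAND (CASAVA 1.7 in the submitters' processing notes). The methods state that peaks were called with MACS on joined reads of biological repeats against NIS. The authors deposited 2 lists of region coordinates, in bp, with 0 score, signal or count columns, so depth and precision at a region are unknown. The members and gene lists were chosen with earlier results of these data known.

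Coordinates were converted to 1-based positions and set against GENCODE release M1 and the NCBIM37 sequence, the same build (1 H3K4me1 region ran past a chromosome end). An overlap was at least 1 bp. Shares over all 22350 protein-coding genes, all peaks or genome tiles of equal length are descriptions, and intervals are exact binomial (95%). Motif words were searched on both strands. The overlap and motif functions were tested on simulated data. The genes named were the members, genes of the windows with a listed region, and the regulators with 0 peaks or the 3 highest counts. Printed stretches, the examples of the marker lists and the densest 300 bases were chosen after their values were seen. Python 3.11.15, NumPy 2.4.6, SciPy 1.17.1 and matplotlib 3.10.9 were used. The NIS sample had no list of its own in the files used here and entered no count.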

Additional observations from a re-analysis of the deposited data

How the results depend on the processing

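With 1 list per antibody there was no replicate to leave out. No paired analysis was possible because each group had a single sample and the results come from no test. Of 57 alternatives for 10 results, 25 moved the value by less than the limit set for it and 32 moved it beyond that limit. The results are counts and shares without a direction, so a reversal was not possible.

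At 5 kb on either side the Runx3 peaks numbered 0 for Cd4 and 2 for Zbtb7b and the H3K4me1 regions 1, 0 and 3 for Cd4, Cd8 and Zbtb7b; at 20 kb the same counts were 0 and 2 and 5, 0 and 4. At 100 kb Cd4 had 7 peaks and Cd8 had 2, with 21, 6 and 19 H3K4me1 regions. Regions wider than the median of their list left 1 peak for Cd4 and 2 for Zbtb7b, with 4 and 7 H3K4me1 regions, and so removed both peaks of the Zbtb7b body. Regulatory domains as in GREAT gave 1 peak to Cd4, the one in Lag3, and 2 to Zbtb7b. The share of protein-coding genes with a Runx3 peak was 39.8%, 51.0% and 72.4% at 5, 20 and 100 kb, 33.6% for the body and 47.6% with the wider peaks, and that with an H3K4me1 region 67.7%, 74.0%, 84.1%, 63.3% and 71.7%. In the central 200 bp, 28.6% of the 7 peaks held the RUNX consensus, compared with 69.2% of the list. The Cd8 count of 0 peaks held at every setting tried but the 100 kb flank.

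A position list limits what can be said: a weak signal below the threshold of calling and no signal look alike, and the strength of the Zbtb7b peaks relative to NIS is unknown.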
